A study of Homo sapiens with 4 samples.

Results

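The RNA of 10 genes for matricellular and adhesive proteins was examined: SPARC, SPOCK1, SMOC1, FSTL1, SPP1, THBS1, THBS2, TNC, POSTN and FN1. They were taken by symbol from the 58735 genes of the deposited tables, and all 10 were among the 19895 tested, which are those that reached 10 reads in some library. The genes were chosen with their values in these libraries known, SPARC for having no read in the library labelled PBS and many in the other libraries, so the levels against PBS are given as a description with no test. The cells were MHCC-97H, an established line of highly metastatic human hepatocellular carcinoma (HCC), of wild-type genotype in every group. One group was given PBS as control for 24 h. The others were given, for the same 24 h, 2 μg of migrasomes (Migs), which are vesicles that migrating cells leave on their retraction fibres. These Migs came from MHCC-97H cells kept in normoxia (normo-Migs), from such cells kept in hypoxia (hypo-Migs), or from CD147-knockout MHCC-97H cells kept in hypoxia (CD147KO-Migs). For normo-Migs the labels and the supplementary methods of the study name normoxia, which was followed here, while the methods in its main text name hypoxia for this experiment. Each of the 4 conditions had 1 library, so no spread between replicates could be measured for any value, and all libraries carry the same batch label.

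The knockout was in the cells that shed the Migs and not in the cells sequenced, so BSG, the gene for CD147, does not check the labels here. Its reads numbered 48157 with PBS and 34021 to 37109 with Migs. Donor and recipient cells were the same line, the knockout line came from another laboratory, and whether it is 1 clone is not given in the sources used here.

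Matricellular proteins are secreted into the extracellular matrix but mostly modulate how cells attach, migrate and respond to growth factors, without forming the main scaffold. SPARC, a collagen-binding and counter-adhesive glycoprotein, gives its name to a family that shares an acidic, calcium-binding module and a follistatin-like domain. Thrombospondins, tenascin C, periostin and osteopontin are other members of the class, while fibronectin is a structural glycoprotein of the matrix through which cells adhere by integrins. In liver several of these genes are typical of stellate cells and fibroblasts, while plasma fibronectin is made by hepatocytes and osteopontin by bile duct cells.

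Between 33882496 and 40285223 reads lay on genes per library, so that a gene without a read may still be present at up to 3 reads, or 0.0745 to 0.0885 per 1000000 reads on genes (CPM). The library labelled PBS stood apart from the others: the mean chi-square per gene was 208 to 228 between it and a Mig library, and 6.14 to 7.61 between Mig libraries. Mitochondrial genes took 2.69% of its reads and 5.00% to 5.16% in the Mig libraries. KRT19, an epithelial keratin, was counted 11287 times there and 75, 52 and 32 times with normo-Migs, hypo-Migs and CD147KO-Migs. The listed hepatocyte markers ALB, AFP, APOB and TTR had 0 reads in all 4 libraries, whereas FGB and HNF4A, from the same list of 13, had reads in 3 and 4 of them, and KRT8 and KRT18 were abundant in all 4. At 3 reads or fewer with PBS and at least 100 in each Mig library there were 251 genes, of which 2 are among the 10. All ratios to PBS below share this 1 library, and treatment cannot be told apart from any other difference between that library and the rest.

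SPARC was read 0 times in the library labelled PBS, and 13404, 16845 and 15206 times in those of normo-Migs, hypo-Migs and CD147KO-Migs. In FPKM (fragments per kilobase of the gene and 1000000 reads, scaled by the authors), its levels were 0, 80.7, 86.1 and 89.0. The gene lies on chr5:151661096-151687165 of GRCh38, on the minus strand, and its principal transcript has 10 exons and 303 codons. Against the 3 reads that a count of 0 allows, SPARC was at least 4527-fold higher with normo-Migs, at least 4830-fold with hypo-Migs and at least 4997-fold in the CD147KO-Migs library. These folds take the Mig reads as exact and the limit with PBS as 3 reads. The lower ends of the exact 95% intervals, which do neither, were log2 ratios of 11.85, 11.94 and 11.99, so the folds are not bounds at that level. Among the 703 protein-coding genes tested that had no read in the library labelled PBS, SPARC had the highest mean CPM, a scale without gene length, in the Mig libraries. Its rank by FPKM among all genes was 445, 396 and 386 in the same order.

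SPOCK1, or testican 1, is a secreted proteoglycan with a SPARC-like calcium-binding domain. It had 1086 reads with PBS and 3540, 3968 and 3155 reads with normo-Migs, hypo-Migs and CD147KO-Migs, or 5.05, 16.6, 15.8 and 14.3 FPKM. All 3 Mig libraries lay above the library labelled PBS, by log2 ratios of 1.72, 1.65 and 1.52. SMOC1, a calcium-binding protein of basement membranes, was read 4935 times with PBS and 7328, 7853 and 6991 times with Migs, in the same order. Its log2 ratios to PBS were 0.59 (95% counting interval 0.54 to 0.64), 0.45 (0.40 to 0.50) and 0.48 (0.43 to 0.53), so it was higher with each of the Migs but by less than 2-fold. FSTL1, a secreted follistatin-like glycoprotein that can bind growth factors of the BMP group, was the abundant gene with the opposite order. It had 11643 reads with PBS against 5587, 6294 and 5304 with Migs, and its FPKM went from 38.6 to 18.6, 17.8 and 17.2. The log2 ratios of FSTL1 were -1.04 (-1.09 to -0.99), -1.10 (-1.15 to -1.06) and -1.16 (-1.20 to -1.11), and the first of these intervals spans the 2-fold line.

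SPP1 encodes osteopontin, a secreted phosphoprotein that binds integrins and CD44 and is a known serum marker of HCC. Like SPARC, SPP1 was without a read in the library labelled PBS. The Mig libraries held 428, 408 and 463 reads in the same order, or 5.37, 4.34 and 5.64 FPKM. Against the same 3 reads SPP1 was at least 145-fold, 117-fold and 152-fold higher than with PBS (lower ends of the exact intervals at log2 ratios of 6.87, 6.56 and 6.94), in place 57 among the 703 tested protein-coding genes without a read in that library. The other genes of its family, DSPP, DMP1, IBSP and MEPE, were at 0 reads in all 4 libraries.

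THBS1, the gene for thrombospondin 1, which restrains angiogenesis and activates latent TGF-β, had 1338 reads with PBS and 2509, 2781 and 2392 with normo-Migs, hypo-Migs and CD147KO-Migs. Its log2 ratios of 0.92 (0.83 to 1.02), 0.84 (0.74 to 0.93) and 0.82 (0.72 to 0.91) lay under 2-fold, though the first interval reaches past it. THBS2, the closely related thrombospondin 2, was near the limit of detection, with 6 reads with PBS and 38, 41 and 59 with Migs. The log2 ratios of THBS2 were 2.35 (1.43 to 4.21), 2.23 (1.31 to 4.08) and 2.92 (2.07 to 4.78). TNC, for tenascin C, a hexameric protein of remodelling and tumour matrix, was read 88 times with PBS and 498, 556 and 434 times with Migs. In every Mig library TNC lay above PBS, by log2 ratios of 2.49 (2.19 to 2.86), 2.42 (2.12 to 2.78) and 2.26 (1.95 to 2.63).

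POSTN, for periostin, a matrix protein of fibroblasts, was the second gene that was lower with Migs, but on few reads. It had 10 reads with PBS and 0 with each of the Migs, which against 3 reads is at least 3.29-fold, 3.88-fold and 3.38-fold lower with normo-Migs, hypo-Migs and CD147KO-Migs if the 10 reads are taken as exact. The exact 95% intervals, which allow for the error of those 10 reads, reach up to log2 ratios of -1.15, -1.38 and -1.19. FN1, for fibronectin, had 548 reads with PBS and 15712, 18900 and 13976 with Migs, so that every Mig library lay far above PBS. Its FPKM was 0.915 with PBS and 26.4, 27.0 and 22.8 with Migs. The log2 ratios of FN1 were 4.86 (4.74 to 4.99), 4.89 (4.77 to 5.02) and 4.65 (4.53 to 4.78), the highest of which is 29.7-fold and the lowest 25.1-fold.

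Thus 6 genes (SPARC, SPOCK1, SPP1, THBS2, TNC and FN1) were at least 2-fold higher and 2 (FSTL1 and POSTN) at least 2-fold lower in each Mig library than with PBS. Of all genes tested, 18.1%, 18.9% and 18.3% were at least 2-fold higher with normo-Migs, hypo-Migs and CD147KO-Migs, and 12.0%, 11.6% and 12.0% were at least 2-fold lower, or 30.2%, 30.5% and 30.3% in either direction against 8 of the 10. In all 3 Mig libraries together, 14.2% of genes were higher and 7.1% lower. The median log2 ratio to PBS was 2.04, 1.94 and 1.89 over the 10 genes and 0.03, 0.04 and 0.03 over all genes tested. No read with PBS and at least 100 reads in each Mig library was seen for 194 genes, 0.975% of those tested, SPARC and SPP1 among them. Since the genes were chosen on these values, nothing is read from the counts. Nearest the 2-fold line were FSTL1, just past it, and THBS1, just short of it.

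**Figure D1:**
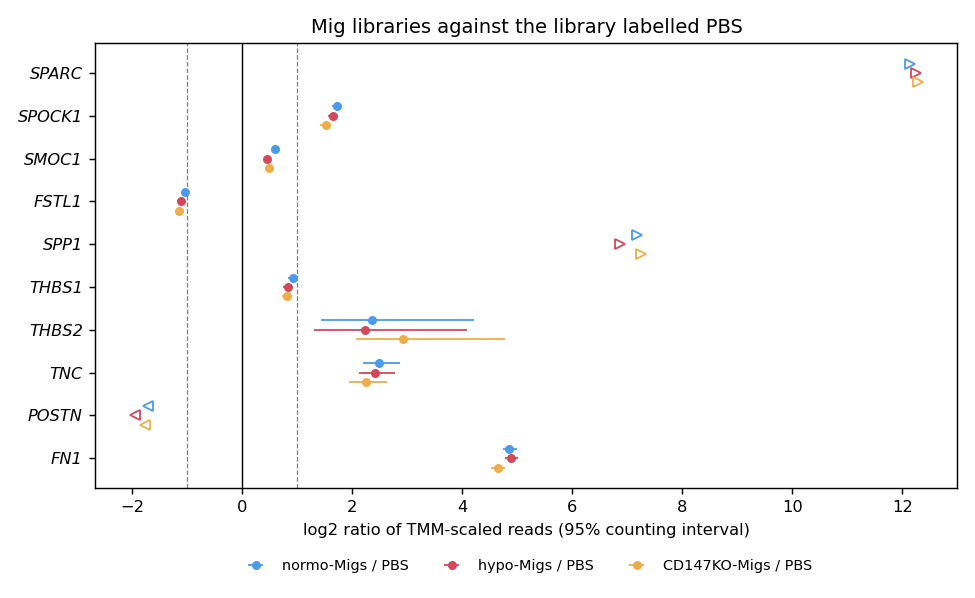
Log2 ratio of each gene in each Mig library to the library labelled PBS, from reads scaled by TMM, with exact 95% counting intervals. Open triangles are bounds for genes with 0 reads in 1 library, and dashed lines mark 2-fold. SPARC, SPP1 and FN1 lie farthest to the right, and FSTL1 and POSTN lie left of 0.

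**Figure D2:**
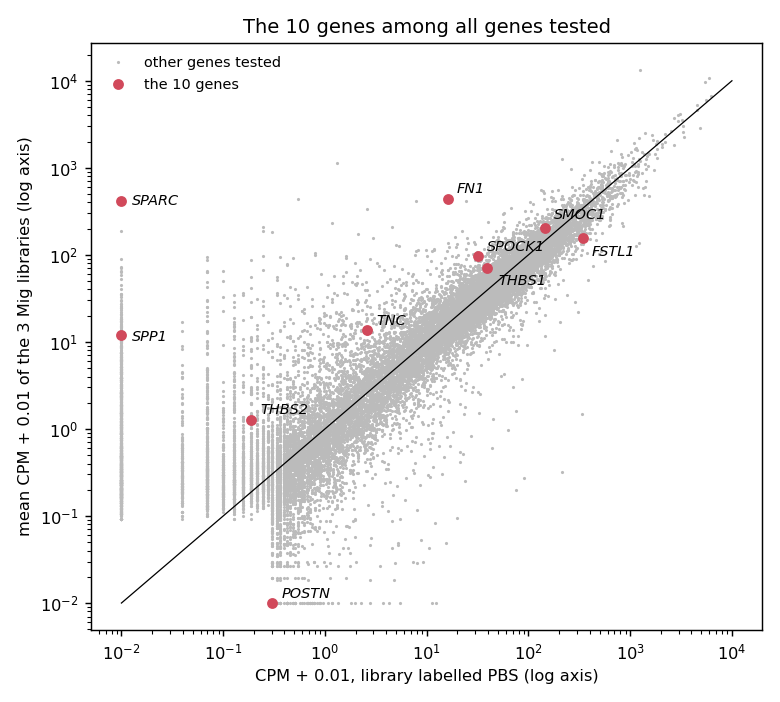
Each gene tested, by its CPM with PBS and its mean CPM over the 3 Mig libraries, both on log axes with 0.01 added, and the line of equal values. SPARC is the highest point of the column of genes without a read in the library labelled PBS, SPP1 lies lower in the same column, and SMOC1 lies close to the line.

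By FPKM, which allows levels of different genes to be compared, the order with PBS was FSTL1, SMOC1, SPOCK1, THBS1, FN1, TNC, POSTN and THBS2, with SPARC and SPP1 at 0. In each of the 3 Mig libraries it was SPARC, SMOC1, FN1, FSTL1, SPOCK1, THBS1, SPP1, TNC and THBS2, with POSTN at 0. Of 31 neighbouring pairs in these orders, 1 had overlapping counting intervals, POSTN and THBS2 with PBS. The 10 genes summed to 81.8 FPKM with PBS and to 206.1, 204.5 and 203.2 FPKM with normo-Migs, hypo-Migs and CD147KO-Migs. FSTL1 made up 47.2% and SMOC1 39.9% of that sum with PBS, whereas SPARC alone made up 39.2% to 43.8% with Migs, where FSTL1 was 8.46% to 9.04%. FN1 has many transcripts, and the length used for its FPKM was 17315 bases against 7898 in its principal transcript. With the length of principal transcripts, FN1 stood above SMOC1 with hypo-Migs (59.4 against 53.2 reads per kilobase and 1000000 reads on genes). The order with the other Migs stayed as above, but with normo-Migs SMOC1 (57.8) and FN1 (57.6) were nearly equal.

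Promoter sequence was compared because SPARC, SPP1, TNC and FN1, among 6 such genes, were at least 2-fold higher in each Mig library than with PBS. RefSeq windows of 250 bases before the annotated start (GRCh38.p14) were found for 9 of the 10 genes, all but SPOCK1. The windows of SPARC and FSTL1 lie wholly in an exon of a longer GENCODE transcript, and that of FN1 mostly so, and are not printed. The parts outside any annotated exon are shown for SPP1 (0 reads with PBS), TNC (low with PBS) and SMOC1 (abundant in every library), 5′ to 3′ on the strand of the gene, at chr4:87975464-87975649 (+), chr9:115118258-115118407 (-) and chr14:69879166-69879415 (+). Capitals mark the TATA element TATAAA, the GC box GGGCGG, the AP-1 element TGANTCA and the CCAAT box, searched on both strands.
SPP1: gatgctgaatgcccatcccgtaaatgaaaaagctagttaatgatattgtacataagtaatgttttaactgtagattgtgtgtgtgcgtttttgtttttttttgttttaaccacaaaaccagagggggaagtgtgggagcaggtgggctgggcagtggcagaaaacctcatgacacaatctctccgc
TNC: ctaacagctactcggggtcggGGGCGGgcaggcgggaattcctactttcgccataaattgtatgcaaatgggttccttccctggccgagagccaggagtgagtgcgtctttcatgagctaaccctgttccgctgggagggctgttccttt
SMOC1: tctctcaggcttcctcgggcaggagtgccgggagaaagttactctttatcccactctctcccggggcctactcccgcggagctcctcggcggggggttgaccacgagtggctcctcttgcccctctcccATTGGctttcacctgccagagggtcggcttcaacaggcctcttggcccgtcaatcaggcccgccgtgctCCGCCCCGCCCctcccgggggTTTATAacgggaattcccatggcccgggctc

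None of the 4 motifs was found in the SPP1 window, nor in that of SPARC. The SMOC1 window held 1 TATAAA, 2 GC boxes and 1 CCAAT, and the TNC window 1 GC box. The FN1 window held 6 GC boxes, some of them overlapping, with 1 CCAAT, and the FSTL1 window 1 GC box. The THBS1 window held 4 GC boxes and 1 CCAAT, the THBS2 window 1 TATAAA, and the POSTN window 2 TATAAA and 1 AP-1 element. Among 35116 RefSeq windows of the same length, 42.6% held GGGCGG, 32.0% CCAAT, 10.7% TATAAA and 6.57% TGANTCA. CpG dinucleotides numbered 1 in the POSTN window, 3 in SPP1, 7 in SPARC, 12 in TNC and in THBS2, and 17 in SMOC1. FSTL1 and THBS1 had 24 each and FN1 had 32, against a median of 11 over all windows. SPARC and FN1, both far higher with Migs than with PBS, thus had unlike windows, and these matches of letters say nothing of factor binding.

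To ask whether the origin of the Migs mattered, the 3 Mig libraries were compared with each other by the exact binomial test of edgeR, two-sided, with Benjamini-Hochberg adjustment over the 19895 genes. This test compares the reads of 2 libraries and knows counting error only, and each library enters 2 of the 3 pairs. None of the 10 genes reached 2-fold in any pair, where 9.34% of all genes did between hypo-Migs and normo-Migs, 9.12% between hypo-Migs and CD147KO-Migs and 9.69% between normo-Migs and CD147KO-Migs. With the test and the 2-fold criterion together, 4.9%, 5.04% and 4.91% of all genes passed, and again 0 of the 10. By the test alone, 3 of the 10 passed between hypo-Migs and normo-Migs (24.7% of all genes), 4 between hypo-Migs and CD147KO-Migs (25.2%) and 6 between normo-Migs and CD147KO-Migs (24.8%). POSTN, counted among the 10, was tested only through its 10 reads with PBS. With 0 reads in all 3 Mig libraries it could pass none of these criteria.

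SPARC differed little between the Mig libraries. It was higher with hypo-Migs than with normo-Migs by a log2 ratio of 0.09 (0.06 to 0.13, adjusted p = 8.96e-07 in edgeR's exact binomial test). It was lower with hypo-Migs than with CD147KO-Migs, at -0.05 (-0.08 to -0.02, adjusted p = 0.0144, or 0.057 without a filter on low counts), and lower with normo-Migs than with CD147KO-Migs, at -0.14 (-0.18 to -0.11, adjusted p = 7.43e-15). The highest of the 3 scaled SPARC levels, with CD147KO-Migs, was 1.10 times the lowest, with normo-Migs.

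FN1 did not pass between hypo-Migs and normo-Migs, with a log2 ratio of 0.03 (0.00 to 0.06, adjusted p = 0.146 in the exact binomial test). It was higher than with CD147KO-Migs both with hypo-Migs, by 0.24 (0.21 to 0.27, adjusted p = 6.28e-47), and with normo-Migs, by 0.21 (0.18 to 0.24, adjusted p = 3.94e-33). SPOCK1 had the same pattern at 0.13 (0.07 to 0.20, adjusted p = 0.00119) and 0.21 (0.14 to 0.28, adjusted p = 1.94e-07). SPP1 was lowest with hypo-Migs, by -0.30 (-0.50 to -0.11, adjusted p = 0.0135) against normo-Migs and -0.38 (-0.57 to -0.18, adjusted p = 0.00127) against CD147KO-Migs. SMOC1 was highest with normo-Migs, and its ratio of hypo-Migs to normo-Migs was -0.14 (-0.18 to -0.09, adjusted p = 2.49e-07). Between normo-Migs and CD147KO-Migs, SMOC1, FSTL1 and THBS1 each differed by 0.11, with adjusted p of 0.000135, 0.000449 and 0.0376, the last of which did not pass with total reads, with TMM from protein-coding genes or without a filter. TNC and THBS2 passed in no pair, although the adjusted p of TNC between normo-Migs and CD147KO-Migs was 0.0511, and 0.0496 when the library labelled PBS was left out of the exact binomial test's filter and scaling. Among the 9 genes with reads in these libraries the intervals of THBS2 were the widest, and that between hypo-Migs and CD147KO-Migs, -0.69 (-1.33 to -0.12, adjusted p = 0.059), includes a 2-fold difference. POSTN, at 0 reads in all 3, could not be compared.

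All of these calls were lost under each spread between replicates that was tried. With an assumed coefficient of variation of 0.1, the number of the 10 genes passing was 0 in every pair, and it was also 0 with a spread taken from the 3 Mig libraries treated as replicates (coefficient of variation 0.0746). For the 8 genes other than THBS2 and POSTN, the highest Mig level was 1.08 to 1.30 times the lowest.

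**Figure D3:**
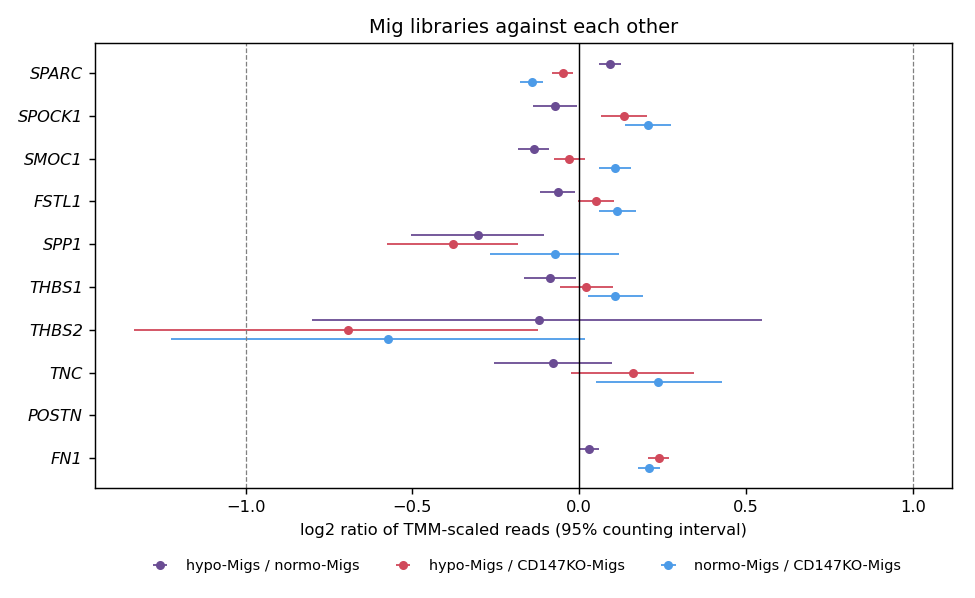
Log2 ratio of each gene between Mig libraries, from reads scaled by TMM, with exact 95% counting intervals and dashed lines at 2-fold. All points lie within 2-fold, the intervals of THBS2 are the widest, and POSTN has no point because it had 0 reads in the 3 libraries.

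The rest of the matricellular class was examined through 43 further genes, 33 of which were tested. With hypo-Migs 15 of the 33 were at least 2-fold higher than with PBS and 4 lower, where 18.9% and 11.6% of all genes were, with a median log2 ratio of 0.48 against 0.04 for all genes tested. With normo-Migs 13 were higher and 4 lower (median 0.65, or 0.61 with genes at 0 reads set to their bound), and with CD147KO-Migs likewise 13 and 4 (median 0.47). Between Mig libraries, 2 of the 33 passed the exact binomial test with the 2-fold criterion in each pair, which is near the background of 4.9%, 5.04% and 4.91%.

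Among 7 listed relatives of SPARC, the most abundant by FPKM was FSTL3, a follistatin-type antagonist of activins that shares the follistatin-like domain but not the calcium-binding module of the SPARC family. It had 22324 reads with PBS and 19230, 21829 and 20249 with normo-Migs, hypo-Migs and CD147KO-Migs. FSTL4 had 2 reads with PBS and 835, 917 and 677 with Migs. SPOCK2, testican 2, had 183 reads with PBS and 110, 121 and 100 with Migs. SPARCL1, the closest relative of SPARC and named for that reason after its values were seen, had 17 reads with hypo-Migs, 1 with CD147KO-Migs and none elsewhere.

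Of the other thrombospondins, THBS3 had 239, 334, 370 and 337 reads with PBS, normo-Migs, hypo-Migs and CD147KO-Migs, COMP 0, 4, 18 and 28, and THBS4 2, 9, 11 and 2. Of the tenascins, TNXB had 76, 129, 230 and 181 reads, TNN 5 or fewer in every library, and TNR 0. In the CCN family of matricellular signalling proteins, WISP2 was lower with Migs (8486 reads with PBS and 2686 to 3652 with Migs), and CYR61 had 2791 reads with PBS and 1596 to 1928 with Migs. NOV had 455 reads with PBS and 761, 643 and 594 with Migs. CTGF had 44 reads with PBS and 205, 249 and 223 with Migs. Of the 4 CCN genes tested, CTGF alone was at least 2-fold higher and WISP2 alone lower in each Mig library. Among 20 further glycoproteins of the matrix, 8 were at least 2-fold higher and 3 lower than with PBS with each kind of Migs (median log2 ratios 0.61, 0.41 and 0.56). Of all genes tested, 18.1% to 18.9% were higher and 11.6% to 12.0% lower. The most abundant of the 20 were the galectins LGALS1 (192.9 FPKM with PBS, 197.0 to 230.2 with Migs) and LGALS3 (63.0 and 118.2 to 128.1) and the fibulin EFEMP1 (23.0 and 72.6 to 86.0). The genes past 2-fold were not all the same in each library. MFAP5 was higher and TNFAIP6 lower with normo-Migs and hypo-Migs only, and LGALS3 higher and FBLN7 lower with CD147KO-Migs only.

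Of 24 genes for receptors of these proteins 19 were tested, and those at least 2-fold higher and lower than with PBS numbered 5 and 1 with normo-Migs, 4 and 2 with hypo-Migs, and 4 and 1 with CD147KO-Migs (median log2 ratios 0.39, 0.44 and 0.52). Of all genes 18.1%, 18.9% and 18.3% were higher and 12.0%, 11.6% and 12.0% lower, so these counts are near the background. Single receptors still differed widely. SDC2 (0 reads with PBS and 2181 to 2685 with Migs), DDR2 (54 and 2243 to 2536), UNC5B and ITGB3 were higher in each Mig library. ITGB8 (2059 and 308 to 398) was lower in each. The 3 receptors of highest mean FPKM stayed within 2-fold. ITGB1, the integrin β1 chain shared by most matrix receptors, had log2 ratios to PBS of 0.65, 0.57 and 0.52 with normo-Migs, hypo-Migs and CD147KO-Migs. SDC1, a heparan sulfate proteoglycan, had 0.03, -0.05 and -0.06, and ITGB5, a vitronectin receptor chain, 0.22, -0.03 and -0.18. Of 18 enzymes that process or assemble the matrix 15 were tested, and 8, 6 and 7 were at least 2-fold higher with normo-Migs, hypo-Migs and CD147KO-Migs (median log2 ratios 1.14, 0.75 and 0.89), where 18.1%, 18.9% and 18.3% of all genes were, and 2 were lower with each. FURIN, a proprotein convertase, had 6576 reads with PBS and 18332, 21950 and 20534 with Migs. CTSB, the protease cathepsin B, had log2 ratios of 1.65, 1.66 and 1.61, while CTSL, for cathepsin L, had 0.07, -0.04 and -0.03.

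Since several matricellular genes are typical of fibroblasts, markers of other cell types were counted in the same libraries. Of 10 fibroblast markers 8 were tested, and 6 were at least 2-fold higher than with PBS in each Mig library (median log2 ratios 2.61, 2.53 and 2.58 with normo-Migs, hypo-Migs and CD147KO-Migs). Of all genes tested, 14.2% were. The summed FPKM of the fibroblast list was 3.38 with PBS and 28.6 to 30.3 with Migs. COL1A1 had 681 reads with PBS and 3472 to 4017 with Migs, THY1 11 and 1681 to 2082, and PDGFRB 70 and 1747 to 2446. The 2 markers that were not tested, COL1A2 and PDGFRA, had 2, 0, 0 and 0 reads and 0, 0, 0 and 1 reads with PBS, normo-Migs, hypo-Migs and CD147KO-Migs. Thus most fibroblast markers, like SPARC and FN1, were higher in the Mig libraries than with PBS, and 2 of the list were at or near 0. COL3A1, with 27, 14, 27 and 20 reads in the same order, and ACTA2, with 71, 68, 95 and 70, stayed within 2-fold. FAP, LUM and DCN were higher with Migs but low, at 1.30 FPKM or less.

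Of 6 leukocyte and macrophage markers 2 were tested, and both, CD14 and CSF1R, were at least 2-fold higher in each Mig library (median log2 ratios 2.40, 2.47 and 2.54). With Migs both were low, at 0.675 to 1.29 FPKM. The list of 6 summed to 0.421 FPKM with PBS and 1.73 to 2.10 with Migs, with PTPRC, the pan-leukocyte marker, at 2, 0, 0 and 2 reads and LYZ at 8 or fewer. CD68 had 6, 2, 1 and 0 reads with PBS, normo-Migs, hypo-Migs and CD147KO-Migs, and CD163 4, 0, 0 and 0. Of 8 endothelial markers 6 were tested, and those higher and lower numbered 2 and 2 with normo-Migs, 3 and 1 with hypo-Migs, and 2 and 1 with CD147KO-Migs. Their median log2 ratio was 0.04 with normo-Migs (-0.26 with genes at 0 reads set to their bound), 0.77 with hypo-Migs and -0.06 with CD147KO-Migs, and the list summed to 11.6 FPKM with PBS and 13.7 to 15.3 with Migs. Most of that was EGFL7, while PECAM1 had 16 reads with PBS and 118 to 146 with Migs, CDH5 84 and 30 to 72, KDR 0, 0, 0 and 2, and VWF 7, 0, 0 and 2. CLDN5 had 4, 3, 15 and 2 reads with PBS, normo-Migs, hypo-Migs and CD147KO-Migs, ERG 0, 2, 10 and 12, and TEK 11, 0, 3 and 0. Each of these entered the genes tested only through the libraries where its reads were highest. The endothelial counts and medians rest partly on these few reads, so no rise or fall is read from them. Of 13 hepatocyte markers 8 were tested, 4 higher and 2 lower with normo-Migs and with hypo-Migs and 5 and 1 with CD147KO-Migs. Their median log2 ratios were 0.95, 0.99 and 1.40 (1.76, 1.34 and 1.40 with genes at 0 reads set to their bound), with sums of 0.869 FPKM with PBS and 7.53 to 9.89 with Migs. FGB, for fibrinogen β, took most of it, with 0 reads with PBS and 561, 827 and 832 with Migs, while HNF4A had 134 and 141 to 246 and APOH 0 and 10 to 21. SERPINA1, lower in each Mig library, had 25 reads with PBS and 2, 9 and 10 with Migs. TF had 2, 0, 0 and 10 reads and AHSG 11, 11, 9 and 10 with PBS, normo-Migs, hypo-Migs and CD147KO-Migs. Of the 5 epithelial markers 2 were higher and KRT19 lower in each Mig library (median log2 ratios 0.72, 0.89 and 0.96), and they summed to 920.0 FPKM with PBS and 1103 to 1304 with Migs. Of all genes tested, 18.1%, 18.9% and 18.3% were at least 2-fold higher with normo-Migs, hypo-Migs and CD147KO-Migs, and 12.0%, 11.6% and 12.0% lower. In all 3 Mig libraries together, 14.2% were higher and 7.1% lower. The part of the marker differences between libraries in the levels of the 10 genes was not tested. In bulk RNA, fewer cells of a type and less RNA per cell cannot be told apart.

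The protein-coding genes with the profile most like that of SPARC over the 4 libraries were CA12, ANPEP, SFRP1, HS6ST2 and SDC2, among 12187 genes averaging 50 reads or more. Likeness was the Euclidean distance between centred log2 CPM, and the distances were 0.993, 1.97, 2.19, 2.20 and 2.31. With 4 libraries, of which 3 were alike, the measure mainly picks genes of comparable depth without a read with PBS, and the same 5 genes followed SPARC in the ranking of such genes by CPM. CA12, a membrane-bound carbonic anhydrase, had 0, 6173, 7732 and 6653 reads with PBS, normo-Migs, hypo-Migs and CD147KO-Migs. ANPEP, a membrane aminopeptidase, had 0, 3615, 3541 and 2668. SFRP1, a secreted Wnt antagonist, had 0, 2698, 3007 and 2306, and HS6ST2, a heparan sulfate sulfotransferase, 0, 2470, 2850 and 2486. SDC2, a syndecan and itself a matrix receptor, had 0, 2181, 2685 and 2270.

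The genes next to SPARC on chromosome 5 had reads in every library. SLC36A1 had 723 reads with PBS and 973, 1045 and 948 with normo-Migs, hypo-Migs and CD147KO-Migs, FAT2 18, 15, 26 and 9, ATOX1 557, 1139, 1337 and 1171, and G3BP1 11240, 12447, 14490 and 12509. None of them had the absence of reads with PBS that SPARC had.

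Several of the 10 genes overlap others, and since the strand setting of the counting is not given in the sources used here, reads of overlapping genes may not have been kept apart. CLMAT3, antisense to SPARC, had 5 reads with hypo-Migs and 0 in the other libraries. BX322234.1, antisense to THBS2, had 4, 15, 14 and 19 reads with PBS, normo-Migs, hypo-Migs and CD147KO-Migs, which is large beside the 6, 38, 41 and 59 of THBS2, so the THBS2 values are uncertain. RPL7AP6, a pseudogene of a ribosomal protein inside SMOC1, had 364, 569, 665 and 563 reads. FSIP1 (9 to 22 reads), AC037198.1 (1 or 0) and AC037198.2 (0) overlap THBS1, AC063952.1 (10 to 21) and MIR198 (0) overlap FSTL1, and DEC1 (0) overlaps TNC.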

How the data were processed

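RNA-seq of 4 MHCC-97H libraries, 1 per condition, was analysed. Samples were grouped by the treatment in their labels. The submitters' processing notes name CASAVA 1.8, fastp, HISAT2 2.0.5 and featureCounts 1.5.0-p3, with the build hg38, and the strand setting is not given in the sources used here. The study's methods describe poly-T selection and random hexamers, the labels a SMARTer kit. The authors deposited raw counts, the reads on each gene without normalization, and FPKM, which the authors scaled by gene length and library size. In the FPKM table the divisor was 0.994 to 1.02 times the reads on genes. All 58735 genes had the coordinates of GENCODE 29, and 15 symbols differed between the tables, so genes were matched by identifier.

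Genes that reached 10 reads in some library were tested, 19895 in all. Scaling was by TMM (factors 1.02, 0.986, 0.996 and 0.999 for PBS, normo-Migs, hypo-Migs and CD147KO-Migs) with edgeR 4.0.16 in R 4.3.3, and log2 ratios used a prior count of 2. Folds of genes at 0 reads were taken against 3 reads per library. Intervals are 95% exact binomial for ratios and Wilson for CPM, and like the p-values they cover counting error only. Mig pairs were compared by edgeR's exact binomial test, adjusted p at most 0.05 and an absolute log2 ratio of at least 1, since 1 library per condition leaves no residual degrees of freedom for quasi-likelihood tests or DESeq2. The procedure was run on simulated counts that held counting error only. Without a spread between replicates in them, that run says nothing on differences between conditions. Figures used Python 3.11.15 and matplotlib 3.10.9.

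The 10 genes, the gene lists, tests and criteria were chosen with earlier results of these data known. Named were the 10 genes, the 3 genes of highest mean FPKM in each list, the 5 nearest in profile to SPARC, the 5 of highest CPM without a read with PBS besides SPARC, the 2 tested protein-coding neighbours on each side of SPARC, and overlapping genes. Other markers and other genes of the lists were named after their values were seen. Alternatives concerned scaling (DESeq2 1.42.0 size factors, total reads, protein-coding genes), the filter, the prior count, log2(FPKM + 1), assumed spread, and a fit without the library labelled PBS.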

Additional observations from a re-analysis of the deposited data

How the results depend on the processing

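Of 423 recomputed log2 ratios of the 10 genes, 397 stayed within their counting interval, 26 did not, 9 crossed the 2-fold line and 0 changed sign while past 2-fold. The intervals of SPARC, SPP1 and POSTN against PBS are open on 1 side and cannot be left there. Thus SPARC with normo-Migs counted as kept at 15.787 with a prior count of 0.25, against 12.787. POSTN between Mig libraries has intervals open on both sides and could not leave them. The 9 that crossed the 2-fold line were THBS2, TNC and POSTN against PBS on the log2(FPKM + 1) scale, which compresses low levels (TNC 0.986, 0.94 and 0.847 with normo-Migs, hypo-Migs and CD147KO-Migs). Against PBS, 8 of the 10 genes were past 2-fold in each Mig library, 5 on that scale, and 4 when every library must hold 10 reads or more, which leaves 6 of the 10. Between Mig libraries, 0 of the 10 passed the 2-fold criterion under every alternative run, where POSTN, at 0 reads there, could not pass. By the exact binomial test alone, 3, 4 and 6 passed between hypo-Migs and normo-Migs, hypo-Migs and CD147KO-Migs, and normo-Migs and CD147KO-Migs. Requiring 10 reads in every library gave 1 and 2 in the first and second of these, because SPARC and SPP1, at 0 reads with PBS, left the set. The calls still in the set, SMOC1 in the first pair and SPOCK1 and FN1 in the second, were kept. In each pair 0 passed with assumed coefficients of variation of 0.1 or 0.4 or the dispersion of the 3 Mig libraries. Under the other settings the third pair gave 5 to 7, and single calls near the threshold turned by that test. THBS1 between normo-Migs and CD147KO-Migs (adjusted p = 0.0376) went to 0.1 with total reads, 0.0503 with TMM from protein-coding genes and 0.0589 without a filter. SPARC between hypo-Migs and CD147KO-Migs (0.0144) went to 0.057 without a filter, FN1 between hypo-Migs and normo-Migs (0.146) to 0.0195 with total reads, and TNC between normo-Migs and CD147KO-Migs (0.0511) to 0.0496 with the 3 Mig libraries alone. The assumed-spread settings for the test alone, the fit of the 3 Mig libraries alone and the order by principal transcript were chosen after seeing the data.

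Over all genes, 6003, 6067 and 6033 were past 2-fold against PBS with normo-Migs, hypo-Migs and CD147KO-Migs. Without a filter these were 10676, 9625 and 10759, with 10 reads in every library 2684, 2744 and 2753, and on log2(FPKM + 1) 1619, 1674 and 1658. Between hypo-Migs and normo-Migs, hypo-Migs and CD147KO-Migs, and normo-Migs and CD147KO-Migs, 1858, 1814 and 1928 genes were past 2-fold, 5103, 4968 and 5930 without a filter, 253, 233 and 264 with 10 reads in every library, and 56, 80 and 66 on log2(FPKM + 1). Without a filter the share of higher calls went from 55.6% to 45.6% between hypo-Migs and normo-Migs and from 52.4% to 43% between hypo-Migs and CD147KO-Migs. No paired analysis was possible because each condition had 1 library, and no library could be left out of a condition for the same reason. The depth limits THBS2 and POSTN most.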
